A study of Mus musculus with 18 samples.

Results

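A list of 40 cell cycle genes was followed through open chromatin in mouse macrophages given 1 or 2 microbial or inflammatory stimuli. The assay was ATAC-seq, in which a transposase cuts accessible DNA and the cuts are counted as sequencing reads. A region belonged to a gene when its midpoint lay inside that gene's body, or when the gene was the nearest protein-coding gene within 50 kb. By this rule 144 of 53796 measured regions, each 501 bases wide, fell to 39 of the 40 genes. Mcm4, a subunit of the replicative helicase, had none, since the region at its end, chr16:15637285-15637786, lay in its neighbour Prkdc. Of the 144 regions, 44 at 34 genes lay within 1 kb of a gene end, either the start or the finish of the gene body, and the other 100 were 64 inside a gene and 36 between genes. The gene-end region farthest out was 958 bases from the end, the nearest of the other regions was 1000 bases away, and the farthest, at Rrm2, was 44.4 kb away.

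The cells were bone-marrow-derived macrophages (BMDMs) from wild-type C57BL/6 mice aged 6 to 12 weeks, grown in 20 ng/mL M-CSF, the growth factor that drives macrophage precursors to multiply and mature, and replated on day 7. Each culture then had 4 h of a first treatment and 4 h of a second, and a group is named by 2 letters, the first and the second treatment: M for medium alone, C for CpG (100 nM, a DNA ligand of TLR9), L for LPS (1 ng/mL, a ligand of TLR4), P for polyI:C (at 1 µg/mL, synthetic double-stranded RNA, which TLR3 and sensors in the cytosol detect) and T for TNF (10 ng/mL, an inflammatory cytokine). There were 9 groups of 2 libraries. MM had medium throughout, in MC, ML, MP and MT a single stimulus came in the last 4 h, and in CL, CT, PL and PT a second stimulus followed a first. The labels do not say that the 2 libraries of a group came from separate animals or cultures, so p-values measure the spread between these libraries, which may be technical.

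The cell cycle is driven by kinases (CDKs) that work only with a cyclin partner. D-type cyclins with CDK4 and CDK6 begin to inactivate the retinoblastoma protein, which frees E2F factors to switch on the genes of DNA replication, and cyclin E with CDK2 carries the cell into S phase. Cyclin B with CDK1 starts mitosis, the spindle checkpoint times its exit, and inhibitors such as p21 and p27 hold the kinases back. Macrophages are known to divide in response to M-CSF and to slow division when they sense microbes.

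Between 3141641 (MM replicate 2) and 5986835 (MT replicate 1) reads lay in regions per library, and a member region held a median of 65 reads in a library and 2 at the lowest. The pair of MP libraries showed only the spread that counting gives (chi-square per region 1.003, p = 0.285) and were counted as 1 sample. ML and MM came next, at 1.069 and 1.078 (chi-square p = 7.23e-29 and 1.34e-35), and were counted as 2 samples each. Over so many regions a small excess gives a low p, so the MM pair, the baseline of the single-stimulus comparisons, was also close to counting noise. The PT libraries were the least alike of the pairs, with a Pearson r over regions of 0.919 against 0.958 to 0.973 in the other groups. Regions within 1 kb of a gene end were present for 8 of 8 macrophage markers, 1 of 6 T cell, 0 of 5 B cell and 2 of 6 neutrophil markers. They were also present for 1 of 6 erythroid and progenitor and 1 of 6 fibroblast and endothelial markers. The median level of these regions was 5.00 log2 CPM for macrophage, 4.32 for T cell and 4.66 for neutrophil markers. It was 2.92 for erythroid and progenitor and 5.27 for fibroblast and endothelial markers, so level alone did not set the macrophage markers apart.

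The promoters of these genes are shown first because accessibility at gene ends varied less than in the genes' other regions. The RefSeq table (GRCm38.p6) held 39 start windows, 250 bases before to 50 after a start, for 33 of the 40 genes. Ccna2, Ccnd1, Ccnd2, Ccne2, Aurkb, Rb1 and Mcm4 were not in it. The first 4 windows below were chosen for their motifs and that of Tyms because accessibility over it fell in 2 comparisons below. Capitals mark CCAAT (the box bound by NF-Y), TTTGAA (the cell cycle homology region, bound by the DREAM complex and B-Myb-MuvB) and the E2F spellings TTTCCCGC, TTTGGCGC and TTTCGCGC, on either strand and 5′ to 3′ along the gene; in the Mcm5 window 2 E2F matches overlap. The windows were Ccnb2 (cyclin B2) at chr9:70421505-70421804 on the minus strand, Top2a (DNA topoisomerase II alpha) at chr11:99024140-99024439 minus, Mcm3 at chr1:20820263-20820562 minus, Mcm5 at chr8:75109259-75109558 plus and Tyms (thymidylate synthase) at chr5:30073576-30073875 minus.
Ccnb2: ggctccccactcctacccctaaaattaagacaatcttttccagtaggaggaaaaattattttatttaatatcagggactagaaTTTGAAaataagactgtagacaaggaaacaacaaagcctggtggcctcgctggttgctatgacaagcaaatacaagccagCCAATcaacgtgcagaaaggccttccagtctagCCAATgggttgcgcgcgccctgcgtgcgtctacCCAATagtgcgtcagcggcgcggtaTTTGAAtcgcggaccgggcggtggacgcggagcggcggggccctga
Top2a: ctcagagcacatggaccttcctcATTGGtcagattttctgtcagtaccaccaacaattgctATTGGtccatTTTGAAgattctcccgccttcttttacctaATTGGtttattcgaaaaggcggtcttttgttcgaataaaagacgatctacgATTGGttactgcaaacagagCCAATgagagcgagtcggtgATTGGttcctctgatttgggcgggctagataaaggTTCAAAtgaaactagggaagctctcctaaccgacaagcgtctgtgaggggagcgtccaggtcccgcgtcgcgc
Mcm3: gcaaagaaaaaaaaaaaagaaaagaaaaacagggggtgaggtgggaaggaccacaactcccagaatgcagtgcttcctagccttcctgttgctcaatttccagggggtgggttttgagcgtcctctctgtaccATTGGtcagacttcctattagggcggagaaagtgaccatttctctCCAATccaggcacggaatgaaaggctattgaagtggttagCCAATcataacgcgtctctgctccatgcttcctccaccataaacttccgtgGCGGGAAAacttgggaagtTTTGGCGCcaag
Mcm5: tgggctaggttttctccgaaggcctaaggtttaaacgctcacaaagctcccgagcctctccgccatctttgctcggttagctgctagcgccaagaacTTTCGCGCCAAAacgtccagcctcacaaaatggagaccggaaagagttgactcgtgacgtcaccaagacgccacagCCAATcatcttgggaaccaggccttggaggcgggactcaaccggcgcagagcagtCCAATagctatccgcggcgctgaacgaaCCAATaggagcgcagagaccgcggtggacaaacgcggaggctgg
Tyms: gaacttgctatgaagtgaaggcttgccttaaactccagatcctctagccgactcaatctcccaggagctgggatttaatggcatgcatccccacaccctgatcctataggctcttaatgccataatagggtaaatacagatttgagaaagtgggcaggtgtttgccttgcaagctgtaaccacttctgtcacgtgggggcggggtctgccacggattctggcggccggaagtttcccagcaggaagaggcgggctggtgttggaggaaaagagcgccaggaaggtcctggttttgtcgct

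CCAAT was in 27 of the 39 windows (69.2%) and in 37.4% of all 32851 promoter windows. TTTGAA was in 11 (28.2%) against 17.9%, and at least one E2F spelling in 10 (25.6%) against 1.84%. The GC box GGGCGG, bound by Sp1, was in 30 (76.9%) against 35.7%. Of motifs of inducible factors, TGANTCA (AP-1) was in 0 windows against 7.81% of all, GGGANTTTC (NF-kB) in 1 (2.56%) against 1.11% and GAAANNGAA (interferon-stimulated response element) in 1 (2.56%) against 8.56%. GAGGAAG, a PU.1 spelling, was in 5 (12.8%) against 13.6%. All were searched on both strands; a match describes letters and does not show binding.

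Accessibility at the ends of cell cycle genes was high and changed little over the 9 treatments, while regions inside the genes and between genes were lower and more variable. The median level was 5.21 log2 CPM over the 44 gene-end regions and 3.53 over the other 100, beside 4.47 and 3.49 over all regions of each kind. The gap between the highest and the lowest group mean had a median of 0.46 (log2) at gene ends and 0.82 elsewhere, beside 0.60 and 0.92 over all regions. It exceeded 1 in 2 of the 44 gene-end regions (4.55%, all gene ends 13.9%), those of Mki67 and Bub1, and in 33 of the other 100 (33%, all others 43%). In a bulk sample of nuclei, a change in the share of cells with open DNA and a change in openness per cell cannot be told apart.

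**Figure D1:**
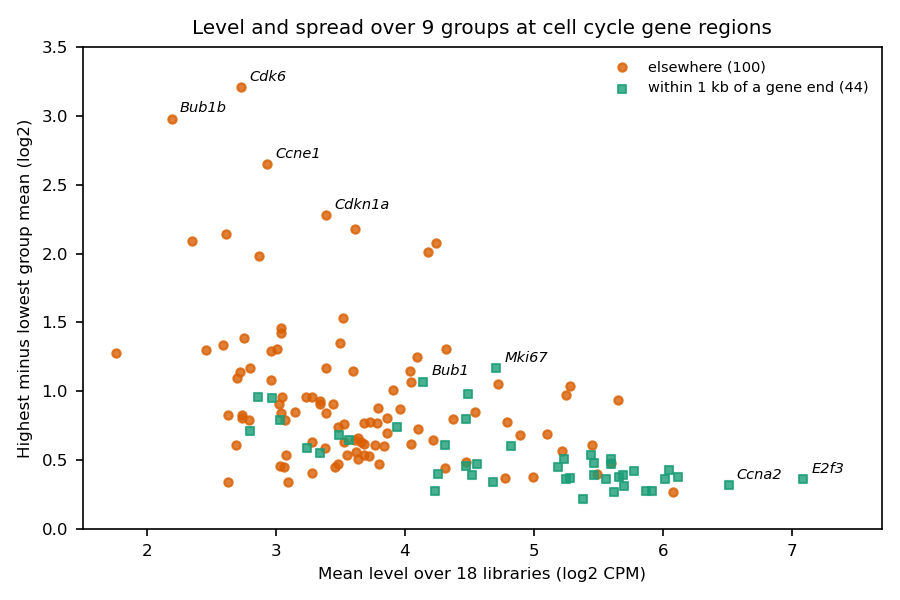
Each point is 1 of 144 regions, with its mean level over 18 libraries (log2 CPM) on the x axis and its highest minus lowest group mean (log2) on the y axis; squares lie within 1 kb of a gene end and circles elsewhere. The 44 squares have a median level of 5.21 and reach 1.17 on the y axis, and the 100 circles have a median level of 3.53 and reach 3.21.

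A moderated F test over the 9 groups (limma, adjusted p under 0.05 over all regions) called 75 of the 144 regions, 52.1%, beside 63.7% of all 53796. At gene ends it called 14 of 44 (31.8%, all gene ends 47.8%), and elsewhere 61 of 100 (61%, all others 68.4%). With the limit at 2 kb, 20 of 59 were called (33.9%, all 50.4%). The share was below that of all regions in both places under 26 of 26 alternative settings, between 15.9% and 52.3% at gene ends where all gene ends had 28% to 64.5%. The 33 regions that overlapped a RefSeq start window of their own gene gave 11 called (33.3%), beside 4322 of 9029 (47.9%) over start windows of any gene; 27 of the 33 were gene-end regions, and the rest lay over a start inside the gene body, at Cdkn1a, Cdkn2c, Ccnd3, Cdk6, E2f3 and Mcm7. Leaving out PT replicate 1 raised the gene-end share of members to 52.3%, and dropping the variance trend lowered it to 15.9%.

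Several gene ends of strongly cell-cycle-linked genes showed no call over the 9 groups. Top2a, the enzyme that untangles replicated DNA, varied by 0.37 between group means (adjusted p = 0.223, limma F test), and Ccnb2 by 0.28 (adjusted p = 0.87). Cdc20, the activator of the anaphase-promoting complex, varied by 0.42 (adjusted p = 0.0748). Ccna2, cyclin A2, stood at a mean of 6.51 log2 CPM and varied by 0.32. A p that misses the threshold does not show that these regions were the same in all groups. The gene-end region of E2f3, an activator E2F, was the most accessible of the members at 7.09 log2 CPM and was called over the groups with a range of 0.36.

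The small differences at gene ends were mostly downward after a single stimulus. Of the 44 gene-end regions, 36 (81.8%) lay below medium after CpG, 35 (79.5%) after LPS, 41 (93.2%) after polyI:C and 34 (77.3%) after TNF, with medians of -0.18, -0.21, -0.14 and -0.10. Over all gene ends the shares were 58.9%, 57.1%, 54.5% and 62.3%. These 4 comparisons share the MM libraries. Under quantile normalization the counts were 37, 36, 41 and 33, and with each library shifted to one median 39, 35, 41 and 31. Most of these regions were not called singly.

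Each single stimulus was set against medium, and the calls are given beside those over all regions, as a description with no test. With CpG (MC against MM), 28 of the 144 were called, 16 higher and 12 lower, or 19.4% beside 26% of all regions (17.2% higher, 8.79% lower). With LPS it was 26, 15 higher and 11 lower, or 18.1% beside 24.5% (15% higher, 9.55% lower), and with polyI:C 27, 18 higher and 9 lower, or 18.8% beside 22.5% (14.3% higher, 8.28% lower). TNF gave 8 calls, 7 higher and 1 lower (5.56%, all 6.36%, with 5.79% higher and 0.573% lower). Members hold a larger part of gene-end regions (44 of 144) than the table does (12137 of 53796), and gene ends were called less often over all regions, so the shares are also given by place. At gene ends members had 9.09% called with CpG, 13.6% with LPS, 6.82% with polyI:C and 2.27% with TNF, beside 11.9%, 16.8%, 9.92% and 1.81% of all gene ends. Elsewhere they had 24%, 20%, 24% and 7%, beside 30.1%, 26.7%, 26.2% and 7.68%. The shares for polyI:C and TNF lie near those of all regions, and TNF at gene ends, 1 region, lies above. Median differences were -0.13, -0.11, -0.08 and -0.09, against 0.01 or nearer to 0 over all regions. Quantile normalization gave 12 rises and 13 falls for CpG, 11 and 7 for polyI:C, and 3 and 0 for TNF. Single libraries weighed on these counts: CpG fell to 17 without MC replicate 1, LPS to 13 without either ML library and 16 without either MM library, polyI:C to 16 or 17 without MM replicate 1 or 2, and TNF to 5 without MM replicate 1 or MT replicate 1 and 4 without MT replicate 2. Over the 11 comparisons between groups, 59 of 178 member calls stood under every alternative in which their region was tested. A region left out by the filter on low regions could not lose its call there. The regions described below come mainly from these 59 calls.

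**Figure D2:**
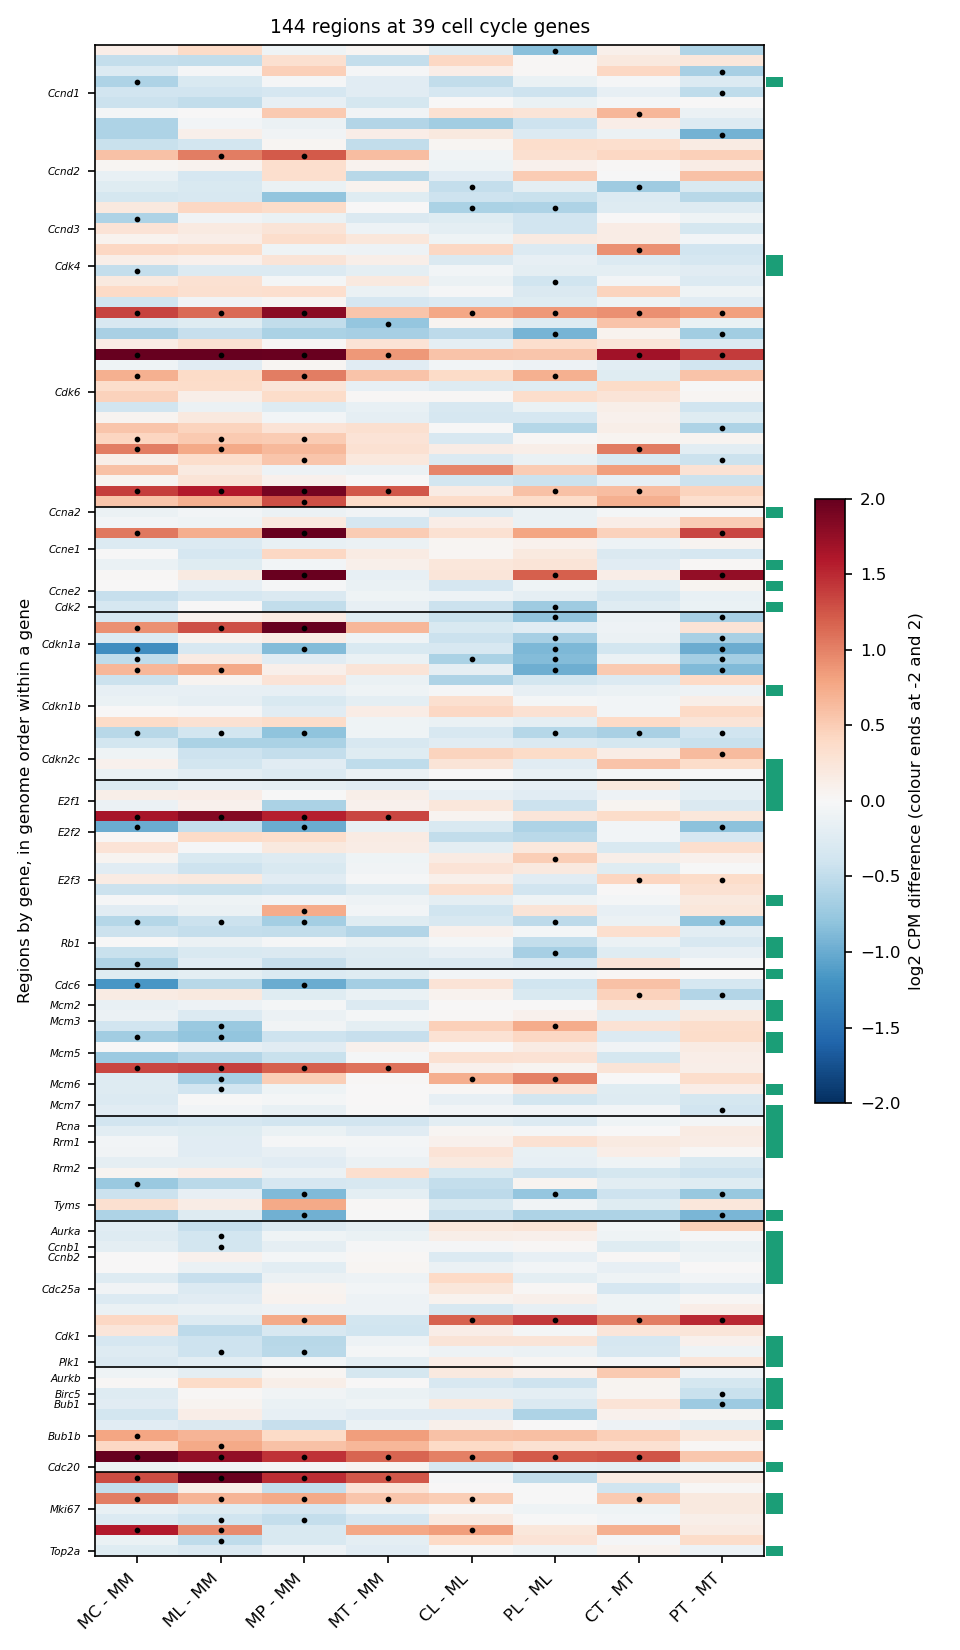
Each line of the map is 1 of the 144 regions, grouped by gene and, between black lines, by role; columns are 8 comparisons, colour is the log2 CPM difference (red higher, blue lower, colours ending at -2 and 2), black dots mark calls and green marks at the right edge gene-end regions. Strong red lies in regions of Cdk6, E2f1, Mki67, Ccne1 and Bub1b, and most lines with a green mark are pale.

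D-type cyclins and their kinases held 44 regions, of which 28 were called over the 9 groups (63.6%, all regions 63.7%), and 22 of the 44 belonged to Cdk6, the kinase partner of D cyclins and a long gene with 14 called regions. No Cdk6 region lay within 1 kb of an end of the gene body. Its region chr5:3394862-3395363, inside the gene 51.2 kb from the start, stood at 0.58 and 0.64 log2 CPM in MM. The same region had 2.68 and 3.36 in MC, 3.28 and 3.23 in ML, 2.76 and 2.42 in MP and 1.30 and 1.64 in MT. Every stimulated library lay above both MM libraries, and MT lay between MM and the rest. The difference from MM was 2.41 ± 0.26 (SE, adjusted p = 3.94e-09) for CpG, 2.65 ± 0.26 (adjusted p = 7.93e-10) for LPS and 1.98 ± 0.32 (adjusted p = 1.08e-05) for polyI:C. For TNF it was 0.86 ± 0.26 (adjusted p = 0.0369), a call that was lost under quantile normalization (adjusted p = 0.665), with log2(CPM + 1) (0.133), with voom on recovered reads (0.262), with only the compared groups fitted (0.239), and without ML replicate 1 or 2 (0.0504, 0.0503), MM replicate 1 or 2 (0.147, 0.132), MT replicate 1 or 2 (0.0545, 0.306) or PL replicate 1 or 2 (0.0507, 0.0505).

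A second Cdk6 region, chr5:3509399-3509900, 165.8 kb from the start, had 2.16 and 2.02 in MM and 3.39 and 3.56 in MC. It had 3.82 and 3.54 in ML, 3.9 and 4.12 in MP and 3.6 and 3.07 in MT, so no stimulated library reached down to MM. The differences were 1.38 ± 0.22 (adjusted p = 6.31e-06), 1.59 ± 0.22 (8.03e-07), 1.92 ± 0.27 (1.08e-06) and 1.24 ± 0.22 (0.000144) for CpG, LPS, polyI:C and TNF, each past the threshold under every alternative. A further region, chr5:3355768-3356269, 12.1 kb from the start, had 2.55 and 3.23 in MM. It rose to 4.24 and 4.23 in MC, 4.18 and 3.90 in ML and 4.85 and 4.53 in MP, by 1.35 ± 0.19 (adjusted p = 1.19e-06), 1.14 ± 0.19 (2.6e-05) and 1.80 ± 0.24 (3.85e-07), with no overlap. Of all regions away from gene ends, the place of every Cdk6 region, 8545, 7241 and 6938 of 41659 were higher with CpG, LPS and polyI:C. In all, 6 of the 22 Cdk6 regions were higher with CpG (3 without MC replicate 2), 5 with LPS (8 without PT replicate 2) and 7 with polyI:C (4 without either MM library), where 17.2%, 15% and 14.3% of all regions were higher.

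**Figure D3:**
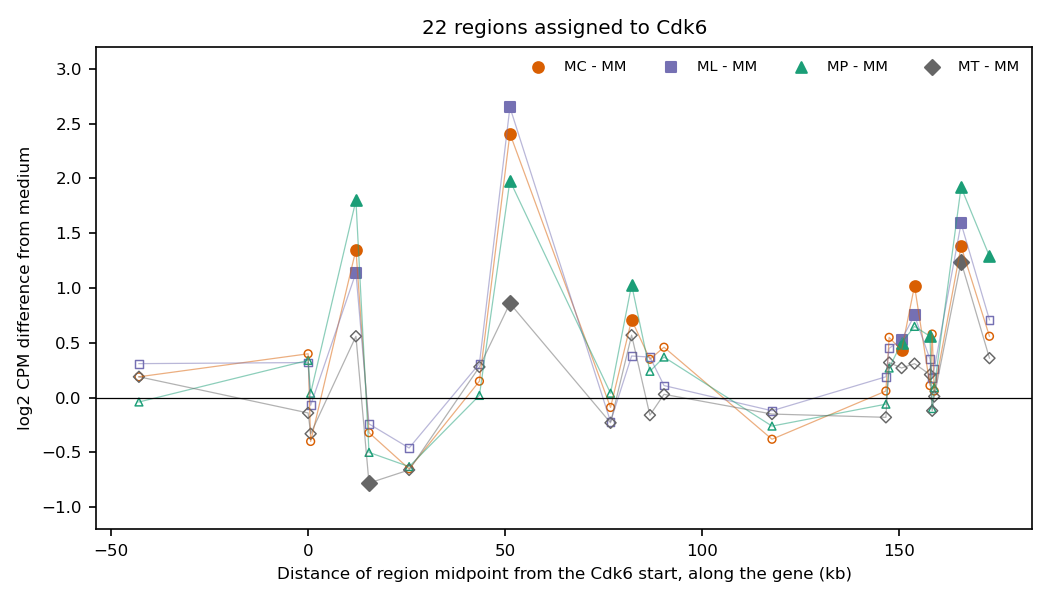
The 22 regions assigned to Cdk6 are placed by the distance of their midpoints from the gene's start (kb, x axis), with the log2 CPM difference from medium on the y axis; circles are CpG, squares LPS, triangles polyI:C and diamonds TNF, filled where called. The highest points, 2.41 for CpG and 2.65 for LPS, stand 51.2 kb from the start, and open symbols are differences that were not called.

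Ccnd1, cyclin D1, had 9 regions of which 7 were called over the groups, where 63.7% of all regions were called. Its gene-end region chr7:144939590-144940091 had 5.00 and 4.64 in MM and 4.16 and 4.26 in MC, and fell by 0.61 on the log2 scale (SE 0.18, adjusted p = 0.0105), a call lost without MC replicate 1 (0.0854) or MM replicate 1 (0.186). Ccnd2, cyclin D2, had 1 region, chr6:127143087-127143588, that was higher with LPS by 1.02 ± 0.28 (adjusted p = 0.00687) and with polyI:C by 1.23 ± 0.34 (0.00765), from 1.53 and 1.91 in MM. Under quantile normalization neither stayed past the threshold (adjusted p = 0.171 and 0.167); the LPS call was also lost without ML replicate 1 (0.0618) or MM replicate 1 (0.0859), and the polyI:C call without MM replicate 1 (0.0611) or MP replicate 2 (0.0616). Cdk4, the other kinase of D cyclins, fell at its start with CpG, from 5.91 and 5.91 to 5.29 and 5.58 (-0.47 ± 0.13, adjusted p = 0.00571), but not without MC replicate 1 (0.159).

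Among cyclin E, cyclin A and CDK2, 3 of 10 regions (30%, all regions 63.7%) were called over the groups. The rise was at Ccne1, cyclin E1, with polyI:C. The region chr7:38128203-38128704, between genes and 21.0 kb from the Ccne1 start, had 1.62 and 2.41 in MM, 1.89 and 2.18 in MC, 1.94 and 2.44 in ML and 1.56 and 2.13 in MT. It had 3.93 and 4.03 in MP, 3.31 and 3.46 in PL and 3.54 and 3.66 in PT, and 2.38 and 2.49 in CL and 2.28 and 1.66 in CT. Every library that had received polyI:C, first or second, lay above every library that had not. The difference of MP from MM was 1.97 ± 0.36 (adjusted p = 7.6e-05), from ML 1.79 ± 0.36 (0.000689), and of MC from MP -1.95 ± 0.36 (0.00023).

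On the other side of Ccne1, 36.2 kb from its start, chr7:38071007-38071508 had 2.68 and 0.90 in MM, a wide gap between replicates, and 4.60 and 4.28 in MP. It had 2.85 and 2.83 in MC, 2.52 and 2.49 in ML and 1.86 and 2.73 in MT, all below MP. MP exceeded MM by 2.65 ± 0.41 (adjusted p = 7.43e-06) and ML by 1.94 ± 0.41 (0.00137), and MC was below MP by -1.60 ± 0.41 (0.00758). Its CpG difference, 1.05 ± 0.34 (adjusted p = 0.0185), rested on MM replicate 2 (0.798 without it) and was also lost under quantile normalization (0.184), without the variance trend (0.0714), with voom (0.0634) and without MC replicate 1 (0.0894) or 2 (0.0839).

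The regions whose group means were most like those of Ccne1 at 38128203, out of regions called by the F test and assigned to another gene, lay at Ecpas (Pearson r = 0.990 over 9 group means), Cacna1d (0.987), Dclk2 (0.985), Hif1a (0.982) and Sema5a (0.981). These points share the 17 samples of 1 fit, and the values are descriptions.

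The CDK inhibitors held 16 regions, 10 of them (62.5%, all regions 63.7%) called over the groups, and 6 of these belonged to Cdkn1a. Cdkn1a encodes p21, the inhibitor known as a target of p53, and all of its 6 regions were called by the F test. None of them lay within 1 kb of a gene end, and of all regions elsewhere 68.4% were called. The region chr17:29081947-29082448, 8.8 kb from the start, had 2.83 and 2.02 in MM, 3.65 and 3.77 in ML and 4.90 and 4.51 in MP, with 3.31 and 3.39 in MC. The MP libraries lay above all other libraries. The difference was 2.28 ± 0.29 (adjusted p = 2.4e-07) for polyI:C and 1.29 ± 0.24 (0.000108) for LPS, and MC lay below MP by -1.36 ± 0.29 (0.00136). For CpG it was 0.92 ± 0.24 (adjusted p = 0.00343), lost without MM replicate 2 (0.195).

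Inside the same gene a region fell with CpG. Over the 6 Cdkn1a regions CpG gave 2 higher and 2 lower calls, where 17.2% of all regions were higher and 8.79% lower. Of the 41659 regions away from gene ends, 8545 were higher and 4011 lower. Cdkn1a region chr17:29094720-29095221, 1.2 kb from the start, had 3.40 and 4.08 in MM and 2.58 and 2.39 in MC. The MC libraries lay below both MM libraries, and the region fell by 1.25 on the log2 scale (SE 0.25, adjusted p = 0.000217). ML had 3.49 and 3.36, and was not called against MM. With polyI:C the region was also called lower than in MM, a call not kept under every alternative.

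Cdkn1b encodes p27, the inhibitor that holds resting cells out of the cycle. Its region chr6:134928398-134928899, 8.2 kb from the start, had 6.24 and 6.09 in MM, 5.62 and 5.6 in MC and 5.34 and 5.37 in MP, with no overlap. It fell by 0.55 (SE 0.13, adjusted p = 0.00124) with CpG and by 0.81 (SE 0.16, adjusted p = 0.000189) with polyI:C. The Cdkn1b gene-end region varied by 0.31 over the groups.

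RB and E2F genes held 18 regions, 9 (50%, all regions 63.7%) called over the groups. A region 4.9 kb from the start of E2f1, an activator E2F, was the clearest: chr2:154574109-154574610 had 2.68 and 2.78 in MM, 4.39 and 4.37 in MC, 4.56 and 4.58 in ML, 4.18 and 4.37 in MP and 4.30 and 3.85 in MT. All 16 other libraries lay above both MM libraries. The rise was 1.65 ± 0.17 (adjusted p = 2.02e-09) for CpG, 1.84 ± 0.17 (2.92e-10) for LPS, 1.55 ± 0.21 (7.36e-07) for polyI:C and 1.34 ± 0.17 (8.99e-07) for TNF, each kept under every alternative. The 3 gene-end regions of E2f1 were not called.

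E2f2, a second activator E2F, moved the other way. Its region chr4:136174706-136175207, 2.7 kb from the start, had 3.65 and 3.53 in MM, 2.48 and 2.71 in MC and 2.41 and 2.78 in MP. It fell by 0.99 (SE 0.26, adjusted p = 0.00429) with CpG, lost without MC replicate 1 (0.0599), and by 0.99 (SE 0.32, adjusted p = 0.0229) with polyI:C, lost without MM replicate 1 (0.0906), MM replicate 2 (0.0551) or MP replicate 1 (0.0649). At E2f3 a region 17.3 kb from the start, chr13:30003126-30003627, had 4.76 and 4.93 in MP against 3.83 and 3.95 in MC, a difference of MC from MP of -0.96 ± 0.23 (adjusted p = 0.00486). Rb1, the retinoblastoma gene, had a region inside it, chr14:73222469-73222970, at 5.35 and 5.21 in MM and 4.75 and 4.65 in MC. Its difference was -0.57 ± 0.16 (adjusted p = 0.00676), lost without MC replicate 2 (0.0713) or MM replicate 1 (0.08).

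Origin licensing genes load the MCM helicase onto DNA before S phase. Of their 14 regions, 8 (57.1%, all regions 63.7%) were called over the groups. Cdc6, a loader of the helicase, fell with CpG inside the gene at chr11:98915632-98916133, from 3.31 and 3.57 in MM to 2.48 and 2.05 in MC. The libraries did not overlap, and the difference was -1.17 ± 0.25 (adjusted p = 0.000431). Mcm5, a helicase subunit, had a region 43.3 kb from its start, chr8:75152587-75153088, at 1.53 and 2.23 in MM, 3.11 and 3.31 in MC and 3.28 and 3.23 in ML. It was higher by 1.33 ± 0.25 (adjusted p = 0.000108) with CpG and 1.37 ± 0.25 (0.000101) with LPS. At the other extreme of distance, the Mcm5 gene-end region chr8:75108455-75108956 had 3.25 and 3.71 in MM and 2.66 and 2.74 in ML and was lower by -0.79 ± 0.24 (adjusted p = 0.0161), lost without ML replicate 1 (0.104), ML replicate 2 (0.0623) or MM replicate 2 (0.221).

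Of 10 regions at genes of nucleotide supply and DNA synthesis, 3 (30%, all regions 63.7%) were called over the groups. Tyms, which makes thymidylate, had a called region over its start. The region chr5:30073405-30073906, over the window printed above, had 3.33 and 3.49 in MM, 2.77 and 2.83 in MC, 3.07 and 3.23 in ML, 2.36 and 2.53 in MP and 3.39 and 3.41 in MT. All stimulated libraries but those of MT lay below MM. It fell by 0.96 with polyI:C (SE 0.30, adjusted p = 0.0192), lost without MM replicate 2 (0.0888). Both regions of Pcna, the sliding clamp of DNA polymerase, and the region of Rrm1, a subunit of ribonucleotide reductase, were not called.

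Mitotic entry genes held 14 regions, of which the F test called 3 (21.4%, all regions 63.7%), each at Cdk1, the kinase that starts mitosis. With LPS, small falls were called at the gene ends of Aurka, a spindle-pole kinase (-0.36 ± 0.12, adjusted p = 0.0257), Ccnb1, cyclin B1 (-0.36 ± 0.13, adjusted p = 0.0452), and Cdk1 (-0.41 ± 0.14, adjusted p = 0.0305), with Mcm5 and Mcm6 the other 2 of 5 gene-end falls. These 5 of 44 stood beside 10.2% of all gene ends that were lower with LPS. The count was 0 without ML replicate 1 or ML replicate 2, 2 without MM replicate 1, 1 without MM replicate 2, 1 without the variance trend and 11 with only the compared groups fitted. The Aurka region also lies within 1 kb of an end of Cstf1. The gene-end region of Plk1, a mitotic kinase, varied by 0.34.

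Spindle checkpoint and exit genes had 10 regions, 5 (50%, all regions 63.7%) called over the groups. Bub1b encodes BubR1, which delays anaphase until chromosomes are attached. Its region chr2:118620528-118621029, inside the gene 22.6 kb from the start, had 0.40 and 0.31 in MM, 2.48 and 2.71 in MC, 1.79 and 2.44 in ML, 1.81 and 1.77 in MP and 1.09 and 1.95 in MT. Every stimulated library lay above MM. The MM values rest on few reads, since the lowest value over all regions was -0.7 log2 CPM. All 4 single stimuli were called higher here, though the TNF call was lost under 6 of 26 alternatives. The rise was 2.24 ± 0.30 (adjusted p = 4.44e-07) for CpG and 1.76 ± 0.30 (3.69e-05) for LPS. For polyI:C it was 1.44 ± 0.37 (adjusted p = 0.004), lost under quantile normalization (0.265) and with only the compared groups fitted (0.0721).

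Mki67, which encodes the Ki-67 proliferation marker, had 7 regions, 6 of them called over the groups, where 63.7% of all regions were called. It held the only gene-end region among the members that was called higher with a single stimulus. Of the 7 regions, 3 were higher and 0 lower with CpG, 3 and 2 with LPS, 2 and 1 with polyI:C and 2 and 0 with TNF. Over all regions 17.2%, 15%, 14.3% and 5.79% were higher and 8.79%, 9.55%, 8.28% and 0.573% lower. The other Mki67 gene-end region, chr7:135716275-135716776 over the start, was not called over the groups (limma F test, adjusted p = 0.0719). The called gene-end region chr7:135715526-135716027 had 3.99 and 3.94 in MM, 4.93 and 5.02 in MC, 4.50 and 4.78 in ML, 4.64 and 4.81 in MP and 4.48 and 4.55 in MT. No stimulated library overlapped MM. It rose by 1.02 ± 0.15 (adjusted p = 2.24e-06) with CpG, 0.68 ± 0.15 (0.000945) with LPS and 0.76 ± 0.18 (0.00223) with polyI:C. With TNF it was 0.55 ± 0.15 (adjusted p = 0.0181), lost without MM replicate 1 (0.0743) or 2 (0.14) or MT replicate 1 (0.0781) or 2 (0.143).

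Inside Mki67, chr7:135699274-135699775 had 1.24 and 1.78 in MM and 3.52 and 3.48 in ML, a rise of 1.98 ± 0.25 (adjusted p = 1.09e-07), with 1.31 ± 0.25 (8.51e-05) for CpG and 1.47 ± 0.30 (0.000331) for polyI:C. A further Mki67 region, chr7:135738146-135738647, 22 kb from the start, separated CpG from polyI:C. It had 1.35 and 1.49 in MM, 3.15 and 2.87 in MC, 2.37 and 2.34 in ML and 1.28 and 0.93 in MP. MP did not rise above MM, and MC exceeded MM by 1.59 ± 0.27 (adjusted p = 2.23e-05) and MP by 1.9 ± 0.33 (0.000119).

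**Figure D4:**
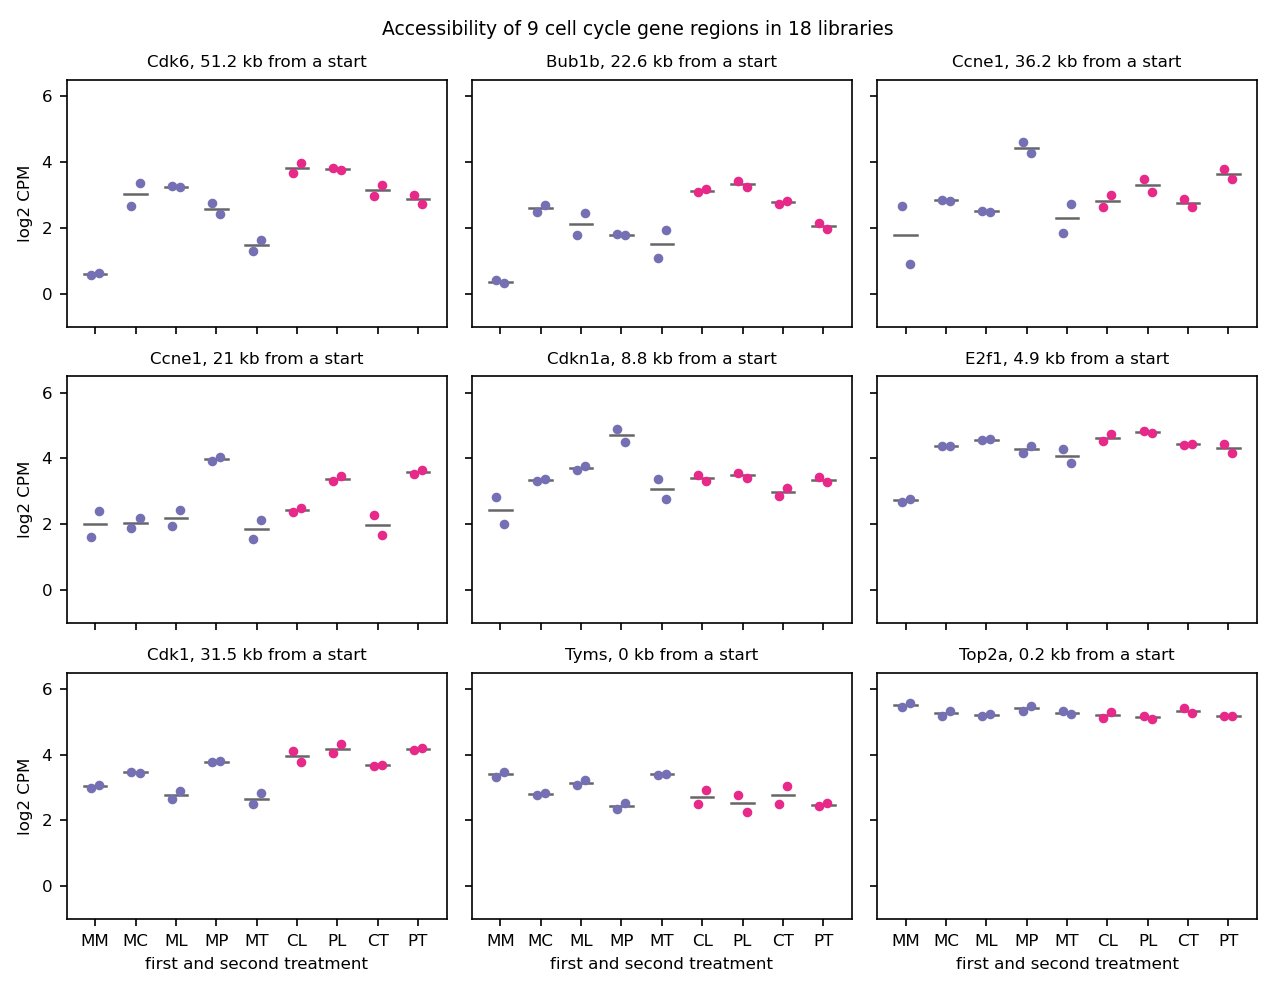
Each panel shows 1 region, with a point for each of 18 libraries (log2 CPM, y axis) and a bar for the group mean; groups are on the x axis by first and second treatment, violet where the first treatment was medium and pink where it was a stimulus. In the Ccne1 panel 21 kb from the start the points of MP, PL and PT stand above the rest, and in the Top2a panel, over its start, the group means lie within 0.37 of each other.

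Groups with a first stimulus before a second were set against the second stimulus alone. No group had a first stimulus followed by medium. A lasting effect of the first stimulus and an altered response to the second therefore cannot be told apart. With LPS second, CpG first (CL against ML) called 9 of 144 regions, 6 higher and 3 lower, or 6.25% beside 15.7% of all regions (9.95% higher, 5.76% lower). PolyI:C first (PL against ML) called 23, 9 higher and 14 lower, or 16% beside 22.9% (13.5% higher, 9.36% lower). With TNF second, CpG first (CT against MT) called 13, 11 higher and 2 lower (9.03%, all 16.3%, with 10.6% higher and 5.65% lower), and polyI:C first (PT against MT) 27, 7 higher and 20 lower (18.8%, all 27.7%, with 15% higher and 12.7% lower). CL and PL share the ML libraries, and CT and PT share the MT libraries. Scaling moved the splits: with quantile normalization CL gave 7 higher and 8 lower and PL 8 and 24, while a shift of all libraries to the same median gave 4 and 13 for CL and 6 and 20 for PL. Counts without 1 library ran down to 3 for CL (without CL replicate 1 or 2 or ML replicate 1 or 2) and up to 19 (without PT replicate 1 or 2). For PL they were 7 without ML replicate 1, 14 without ML replicate 2, 13 without PL replicate 1 and 12 without PL replicate 2, and for CT 7 without CT replicate 2 and 8 without MT replicate 1. For PT they were 12 without MT replicate 1 or PT replicate 2 and 44 without PT replicate 1, and the PT libraries are the least alike pair.

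After polyI:C, Cdkn1a was lower with either second stimulus. Of its 6 regions, 5 were lower in PL than in ML, by -0.66 to -0.97, and 5 were lower in PT than in MT, by -0.65 to -1.0. Over all regions 9.36% were lower in PL and 12.7% in PT. The region chr17:29078833-29079334, 11.9 kb from the start, had 4.36 and 4.51 in ML and 3.72 and 3.57 in PL, without overlap, and fell by 0.79 (SE 0.18, adjusted p = 0.00149) under every alternative tried. In MT it had 4.29 and 3.92, and in PT 3.41 and 3.48, lower by -0.66 ± 0.18 (adjusted p = 0.00618), a call lost without MT replicate 1 (0.142) or with only the compared groups fitted (0.066). Without 1 library the 5 calls in PL became 2 (ML replicate 1 or PL replicate 2) or 3 (PL replicate 1), and the 5 in PT became 2 (MT replicate 1), 3 (MT replicate 2) or 1 (PT replicate 2). The region that polyI:C alone raised, chr17:29081947-29082448, had 3.57 and 3.40 in PL and 3.43 and 3.27 in PT, and was called in neither comparison (-0.23 from ML and 0.27 from MT).

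**Figure D5:**
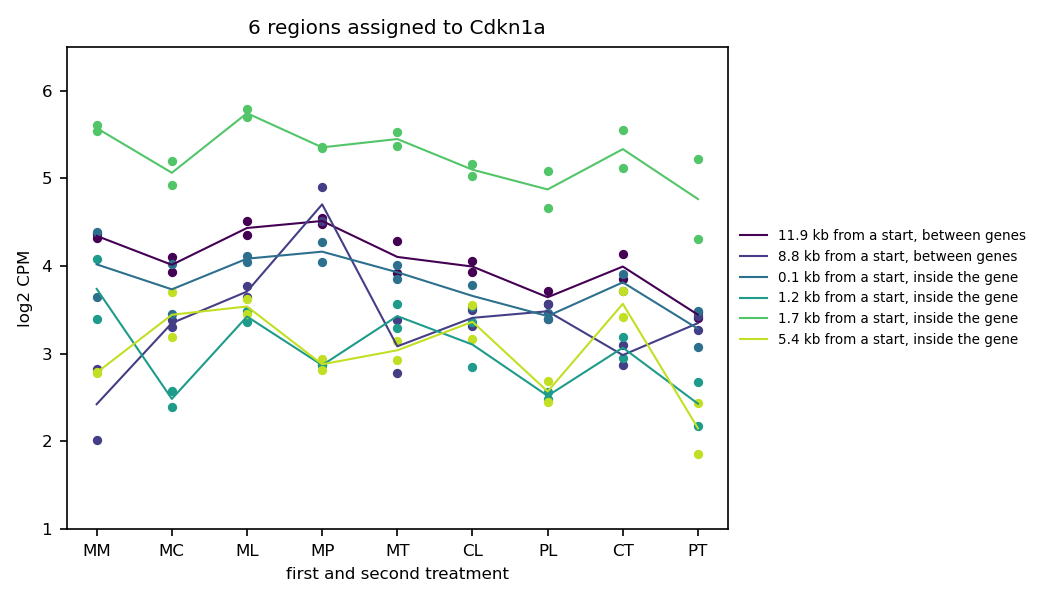
Points are the values of the 6 Cdkn1a regions in 18 libraries (log2 CPM, y axis) by group (x axis), and each line joins the group means of 1 region, coloured by its distance from the start. The region 8.8 kb from the start peaks in MP at 4.90 and 4.51, and the other 5 are lower in PL and PT than in ML and MT.

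A distal Cdk1 region was higher with either first stimulus than with its second stimulus alone. The region chr10:69321151-69321652 lies between genes, 31.5 kb from the Cdk1 start. By the rule its nearest gene body was that of Cdk1, and the body of the next gene, Rhobtb1, was 29.6 kb away. This Cdk1 region had 2.66 and 2.89 in ML, 4.12 and 3.79 in CL and 4.06 and 4.32 in PL. It had 2.49 and 2.83 in MT, 3.67 and 3.70 in CT and 4.15 and 4.20 in PT, and no group with a first stimulus overlapped its control. The differences were 1.18 ± 0.20 (adjusted p = 0.000114) for CL, 1.42 ± 0.20 (5.01e-06) for PL, 1.02 ± 0.20 (0.000402) for CT and 1.51 ± 0.20 (1.23e-06) for PT, each kept under every alternative. MM stood at 2.99 and 3.08, MC at 3.48 and 3.44 and MP at 3.77 and 3.81, so medium, CpG alone and polyI:C alone also gave values above ML and MT. MP exceeded ML by 1.02 ± 0.25 (adjusted p = 0.00507; 0.056 without ML replicate 1) and MM by 0.75 ± 0.25 (adjusted p = 0.0254), the latter lost without MM replicate 1 (0.0874) or 2 (0.0546) and under quantile normalization (0.0654). MC exceeded ML by 0.68 ± 0.20 (adjusted p = 0.0394), lost without MC replicate 1 (0.256) or 2 (0.125), without ML replicate 1 (0.319) or 2 (0.0936), under quantile normalization (0.0725) and with a shift to the same median (0.0509).

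Cdk6 regions moved both ways with a first stimulus. Of the 22, 1 was higher and 0 lower in CL, 3 and 2 in PL, 4 and 0 in CT, and 2 and 3 in PT. Over all regions 9.95% were higher and 5.76% lower in CL, and 13.5% and 9.36% in PL. The shares were 10.6% and 5.65% in CT and 15% and 12.7% in PT, and the Cdk6 counts were not tested against them. Away from gene ends, of 41659 regions, 4863, 6667, 5254 and 7092 were higher in CL, PL, CT and PT. There 2526, 3806, 2523 and 5180 were lower. The rise in CL, 12.1 kb from the start, was lost without CL replicate 2 (adjusted p = 0.096) or ML replicate 2 (0.106). The 3 rises in PL became 1 without any one of the CL, CT, MC, ML or PL libraries, and the 2 falls became 0 without ML replicate 1 or PL replicate 1, 1 without PL replicate 2 and 4 without either PT library. The 3 falls in PT became 1 without MT replicate 1, 0 without PT replicate 2 and 8 without PT replicate 1. At 51.2 kb from the start, TNF alone gave 1.30 and 1.64, CpG before TNF 2.98 and 3.32 and polyI:C before TNF 3.00 and 2.73. CT exceeded MT by 1.68 ± 0.26 (adjusted p = 1.12e-05) and PT by 1.40 ± 0.26 (0.000131). The differences of CL and PL from ML there, 0.57 ± 0.26 (adjusted p = 0.133) and 0.55 ± 0.26 (0.126), did not pass. At 12.1 kb from the Cdk6 start, PL exceeded ML by 0.87 ± 0.19 (adjusted p = 0.00118), CT exceeded MT by 0.91 ± 0.19 (0.000846) and PT by 0.82 ± 0.19 (0.00181). At Ccne1, 21.0 kb from the start, PT exceeded MT by 1.75 ± 0.29 (adjusted p = 3.44e-05) and PL exceeded ML by 1.19 ± 0.29 (0.00315), the latter lost without ML replicate 1 (0.0851).

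Ccnd3, cyclin D3, had a region inside the gene, chr17:47595454-47595955, at 4.03 and 4.01 in MT, 4.92 and 4.95 in CT and 3.83 and 3.44 in PT. CT lay above MT without overlap, by 0.92 ± 0.17 (adjusted p = 0.000119). Mcm6, a helicase subunit, had a region inside the gene, chr1:128357351-128357852, at 3.59 and 3.08 in ML and 4.36 and 4.31 in PL, higher by 1.00 ± 0.18 (adjusted p = 0.00014). MP, at 4.32 and 4.65, also exceeded ML there, by 1.15 ± 0.22 (0.000446). The Cdkn1b region at 8.2 kb fell by 0.65 in CT against MT (SE 0.13, adjusted p = 0.000443), from 5.97 and 6.20 to 5.34 and 5.54.

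Falls after polyI:C before TNF that stood under every alternative in which they were tested were at Rb1, Tyms and Cdc6. The filter on low regions left the Tyms region out, so it was not tested there. Rb1 chr14:73222469-73222970 had 5.01 and 5.06 in MT and 4.10 and 4.36 in PT (-0.80 ± 0.16, adjusted p = 0.000317). The Tyms start region had 2.44 and 2.52 in PT and fell by 0.92 (SE 0.25, adjusted p = 0.00581) from MT. Cdc6 chr11:98918174-98918675 had 5.16 and 5.18 in MT and 4.70 and 4.48 in PT (-0.58 ± 0.14, adjusted p = 0.00192). Of the 44 gene-end regions 4 were lower in PT, beside 13.7% of all gene ends: Tyms, Mcm7, Birc5 (survivin, an inhibitor of cell death that works in cytokinesis) and Bub1 (a spindle checkpoint kinase). Bub1 chr2:127831671-127832172 went from 4.21 and 4.12 in MT to 3.70 and 3.18 in PT (-0.73 ± 0.19, adjusted p = 0.00541), lost without MT replicate 1 (0.0558) or PT replicate 2 (0.12), and without either of these libraries 1 of the 4 remained.

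Whether a first stimulus acted differently before LPS and before TNF was tested as a difference of differences. Limma called 0 of 144 regions for CpG first (0.245% of all regions; 9 members at an unadjusted p under 0.05) and 0 for polyI:C first (0% of all; 6 at an unadjusted p under 0.05), and voom also called 0 in each. Without PT replicate 1, 1 region was called for polyI:C first. Set directly against each other, single stimuli gave few calls. MC against ML had 4 (2.78%, all 5.66%), each lost without one of the MC or ML libraries. MP against ML had 7, 6 higher and 1 lower (4.86%, all 11.4%; 3 without ML replicate 1, 12 without MP replicate 2 or either PT library). MC against MP had 6, 1 higher and 5 lower (4.17%, all 12.7%).

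A wider list of 87 other cell cycle genes, 84 with a region and 215 regions in all, was read in the same way. With CpG 17 were higher and 20 lower (17.2% called), with LPS 19 and 26 (20.9%), with polyI:C 20 and 10 (14%) and with TNF 9 and 1 (4.65%). Of these regions 97 were gene ends, of which 8.25%, 17.5%, 6.19% and 0% were called, and of the other 118 the shares were 24.6%, 23.7%, 20.3% and 8.47%. Beside all regions of the same place, LPS at gene ends and TNF elsewhere lay above and the others below. The smallest p-values were at Pttg1, securin, which holds back the separation of sister chromatids until anaphase. Its region chr11:43410277-43410778, between genes, had 2.16 and 1.78 in MM, 5.12 and 5.05 in MC, 4.36 and 4.10 in ML, 4.67 and 4.46 in MP and 3.37 and 3.34 in MT, with every stimulated library above MM. It rose by 3.12 ± 0.17 (adjusted p = 3.38e-16), 2.26 ± 0.17 (1.5e-12), 2.59 ± 0.21 (1.65e-11) and 1.38 ± 0.17 (3.69e-07). A region at Cenpe, a kinetochore motor, changed by -1.57 ± 0.25 (adjusted p = 9.96e-06) with CpG and by -1.67 ± 0.25 (5.43e-06) with LPS, from 3.92 and 4.32 in MM to 2.81 and 2.29 in MC and 2.2 and 2.7 in ML.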

How the data were processed

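ATAC-seq was made from BMDM nuclei in 18 libraries, 2 for each of 9 groups, per the labels. Tools named without settings, per the submitters' processing notes, are featureCounts, MACS3 3.0.0b1, Picard, SAMtools 1.9 and Bowtie2 2.2.5, with the build mm10 (GRCm38). The deposited table holds log2 CPM per region and library. Every value returned a whole number of reads within 0.01 under a mean prior of 3 reads, which understates differences at low regions.

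Regions were assigned to 21896 protein-coding genes of the RefSeq table for GRCm38.p6 (48821 regions, 13765 genes); whether a region acts on its assigned gene was not tested. Distances to a start are to the nearest RefSeq start of the gene in the promoter table. Limma 3.58.1 in R 4.3.3 fitted group means to the deposited log2 values of all 53796 regions, unfiltered, with a variance trend and the MP libraries averaged (17 columns, 8 residual and 26.64 prior degrees of freedom), and p-values were adjusted over all regions (Benjamini and Hochberg), with calls under 0.05. Differences carry the SE of this fit. Tables and figures used Python 3.11.15. The scripts were tested on simulated data.

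Named regions were, per comparison, up to 4 called rises and 4 called falls by size whose libraries did not overlap, 1 per gene, with a higher group mean of at least log2 CPM 1; the most accessible gene-end region of each role; and up to 2 of the other genes per single stimulus. The regions at Ccnd1 144939590, Mki67 135715526, Mcm5 75152587, Cdkn1a 29078833, Cdc6 98918174, Rb1 73222469, Bub1 127831671 and Ccnd2 127143087 were chosen after their values were seen. So were the gene ends of Top2a, Ccnb2, Plk1, Ccnb1 and Cdk1. The Ccnd1 regions that the rule named, 144932320 and 144981642, are not described. Members and lists were chosen with earlier results of these data known. Alternatives were other scalings, a filter on low regions, log2(CPM + 1), no trend, 18 libraries with and without a replicate block, fits of the compared groups, voom on recovered reads, other assignment rules and leaving out each library. The range of depth is given with the results. Regions most like the Bub1b region are not reported here.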

Additional observations from a re-analysis of the deposited data

How the results depend on the processing

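The 5726 values of single regions recomputed under an alternative cover only comparisons in which the main fit had called the region. A reversed direction was unlikely for values chosen in this way, and none occurred, while 522 of them lost their call. The counts of called member regions moved most where few were called. With regions below the 25th percentile of level left out, fewer regions were tested and the counts were 14 for MC against MM, 17 for ML, 14 for MP, 3 for MT, 15 for PL against ML, 4 for MP against ML and 3 for MC against MP. Quantile normalization gave 3 for MT against MM and 15 for CL against ML, and one median for all libraries gave 17 for CL against ML. Voom on recovered reads gave 17 for CL against ML, 27 for MP against ML and 21 for MC against MP. With only the compared groups fitted, the counts were 43 for ML against MM, 25 for CL and 37 for PL against ML, 10 for PT against MT, 10 for MC against ML, 26 for MP against ML and 13 for MC against MP. Without the variance trend MC against ML had 2 and the gene-end share was 15.9%, and within 10 kb of a gene MP against ML and MC against MP had 2 each. The cause of these shifts was not tested.

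Counting all 18 libraries gave 20 for MP against ML and 17 for MC against MP, and adding a replicate block gave 20 and 16; in the other comparisons the block left the count within 1.5 times (28 for MC, 29 for ML, 36 for MP and 8 for MT against MM, 11 for CL and 24 for PL against ML, 13 for CT and 28 for PT against MT). Over 36 pairs of groups the correlation of deviations of same-numbered libraries ran from -0.358 to 0.242, over 0.1 in 5 and under -0.1 in 5. These values show no pairing by number common to all groups. They cannot exclude one, since counting noise is part of every deviation.

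Leaving out 1 library at a time gave 17 to 36 calls for MC, 13 to 35 for ML, 16 to 29 for MP and 4 to 12 for MT against MM. It gave 3 to 19 for CL and 7 to 32 for PL against ML, 7 to 16 for CT and 12 to 44 for PT against MT, 0 to 5 for MC against ML, 3 to 12 for MP against ML and 5 to 8 for MC against MP. The differences of differences gave 0 to 0 and 0 to 1, the F test 62 to 93, and the gene-end share 20.5% to 52.3%. A group left with 1 library was assumed to vary like the others. Intervals and SEs rest on 2 libraries a group, and reads without molecular identifiers are not independent molecules.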
